A study of Mus musculus with 8 samples.

Results

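CD48dim progenitors of mouse bone marrow were compared with 3 other sorted progenitor populations, each given the same weight in their mean of log2 values, named CD34bright, CD48bright and CD41- CD9-. RNA was measured in 8 libraries, 2 per population, from bone marrow of wild-type mice of the C57BL/6 strain. All the gates took cells with KIT, the receptor of stem cell factor, and without CD16/32, which are Fc receptors. CD48dim and CD48bright cells were both CD34dim CD41+ CD9+ and differed in their gate on CD48. The CD34bright gate was CD41+ CD9+ as well, while the last gate was CD34dim CD41- CD9-, and no level of CD48 is named for these 2 gates. The labels name no gate on lineage markers or SCA-1 and no age, sex or number of mice, and do not give the sort that each of a population's 2 libraries stems from. The p-values therefore cover the spread between libraries alone, and that spread may be technical.

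The focus was on genes in which both CD48dim libraries lay above, or both below, all 6 other libraries. Levels are in CPM (counts scaled to a common library total after TMM normalization). Sort markers and list genes that did not lie apart in this way are described as well, and some of them were called. Among 13177 genes tested, of 24411 in the tables, 1523 lay above all 6 (11.6%) and 1533 below all 6 (11.6%), together 3056 (23.2%). This separation is a description by library and no test. The test was edgeR's quasi-likelihood F-test of CD48dim against the mean of the 3 other populations, and "called" below means a Benjamini-Hochberg adjusted p below 0.05 over all tested genes. It called 761 genes (5.78%), 512 of them higher in CD48dim (3.89%) and 249 lower (1.89%). Both conditions were met by 453 higher genes (3.44%) and 240 lower genes (1.82%). These shares over all tested genes are the background for the main-fit counts of each gene list below. Fits that left out a library or used other settings called other shares, so their list counts cannot be set against these. With the replicate number as a block, 849 genes were called higher and 615 lower.

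Common myeloid progenitors are the marrow cells that lead to granulocytes, monocytes, red cells and the megakaryocytes that shed platelets. CD41, the product of Itga2b, is a subunit of the platelet fibrinogen receptor, and CD9 is a tetraspanin carried by megakaryocytes and platelets. CD48 belongs to the SLAM family of receptors. It is low or absent on long-term haematopoietic stem cells and appears on most of their progeny. Stem cells and early megakaryocyte progenitors share many genes, among them the protein C receptor Procr and the transcription factor Mecom.

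Promoter sequences are shown for Procr and Mecom, for Pclo and P2rx6, the highest-ranking of the 12 genes most raised in CD48dim with at least 150 bases before any annotated exon, and for Siglech and Cd209a, chosen the same way among the 12 genes most lowered. They are shown as context for genes called higher or lower, and shared regulation was not tested. Each holds the bases of the window of 250 bases before a RefSeq start site (GRCm38.p6) up to the first annotated exon or gene base, 5′ to 3′ on the gene's strand. Capitals mark motifs found.
Procr, chr2:155750967-155751116, plus strand: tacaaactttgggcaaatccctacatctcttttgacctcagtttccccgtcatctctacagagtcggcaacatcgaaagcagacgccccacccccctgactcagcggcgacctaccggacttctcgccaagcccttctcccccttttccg
Mecom, chr3:30509823-30510009, minus strand: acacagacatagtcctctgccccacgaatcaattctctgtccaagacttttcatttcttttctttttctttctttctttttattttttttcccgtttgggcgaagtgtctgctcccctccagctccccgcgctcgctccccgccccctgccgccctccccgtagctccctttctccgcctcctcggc
Pclo, chr5:14514668-14514905, plus strand: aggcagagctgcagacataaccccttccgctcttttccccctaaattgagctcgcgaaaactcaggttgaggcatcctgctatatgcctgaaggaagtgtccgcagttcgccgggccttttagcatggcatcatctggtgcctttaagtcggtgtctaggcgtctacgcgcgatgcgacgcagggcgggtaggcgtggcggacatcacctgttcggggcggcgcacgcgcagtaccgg
P2rx6, chr16:17561635-17561866, plus strand: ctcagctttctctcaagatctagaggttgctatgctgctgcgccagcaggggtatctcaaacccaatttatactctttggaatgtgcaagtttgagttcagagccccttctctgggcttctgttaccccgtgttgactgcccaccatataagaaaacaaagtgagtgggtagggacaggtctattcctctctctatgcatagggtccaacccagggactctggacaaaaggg
Siglech, chr7:55767934-55768153, plus strand: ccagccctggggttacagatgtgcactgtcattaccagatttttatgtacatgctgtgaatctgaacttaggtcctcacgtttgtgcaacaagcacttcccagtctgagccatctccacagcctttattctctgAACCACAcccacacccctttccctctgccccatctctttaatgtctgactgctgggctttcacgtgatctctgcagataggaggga
Cd209a, chr8:3748985-3749234, minus strand: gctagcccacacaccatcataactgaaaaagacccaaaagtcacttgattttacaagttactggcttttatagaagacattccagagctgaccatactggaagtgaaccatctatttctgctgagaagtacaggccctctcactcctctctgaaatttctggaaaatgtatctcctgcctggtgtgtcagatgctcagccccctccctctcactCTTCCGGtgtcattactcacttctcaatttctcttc

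Short motifs were searched on both strands: a GATA motif (AGATAA), an ETS motif (CCGGAAG), an E-box (CAGCTG) and a RUNX motif (TGTGGTT). Of the stretches shown, Siglech held a RUNX motif on its minus strand, starting 116 bases before the start site, and Cd209a held an ETS motif on its minus strand, starting 36 bases before it. The stretches of Procr, Mecom, Pclo and P2rx6 held none of these letter strings. Over whole windows of 250 bases, the GATA motif lay in 9.98% of the 491 windows of genes called higher, in 8.12% of the 234 windows of genes called lower, in 6.29% of the windows of all tested genes and in 9.99% of all 32851 windows. For the ETS motif these shares were 3.87%, 8.97%, 13.1% and 6.91% in the same order, descriptions with no test. The E-box shares were 14.3%, 15.4%, 11.9% and 13%, and the RUNX shares 3.46%, 2.56%, 3.28% and 4.4%. RefSeq windows were found for 377 of the genes called higher and 187 of those called lower.

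The libraries held between 7237587 and 20632005 expected counts, and the CD48dim libraries 12753193 and 7237587. The 2 CD48dim libraries resembled each other less (Spearman 0.836 over the tested genes) than the pair of any other population did (0.954 to 0.976). CD48dim replicate 2 stood apart in Malat1, a nuclear RNA, at 38947 CPM against 5004 to 14867 in the 7 other libraries, and in ribosomal protein genes, with 2.38% of counts against 5.21% to 9.78%. In CD48dim replicate 1 the 14 mature neutrophil genes measured summed to 4407 CPM and the haemoglobin genes to 197.2 CPM. Those sums were 675.9 and 32.7 CPM in replicate 2, and 58.4 to 780.9 and 4.33 to 18.5 CPM in the 6 others. Their part in the results was not tested.

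Gene length moved with the calls. The genes called higher had a median effective length of 3327 bases, those called lower 2515 and all tested genes 2536. Tested genes were parted by length into 4 bins of equal size. In the bin of the longest genes 6.59% were called higher, against 2.21% in that of the shortest, while the share called lower was 1.67% and 1.88%. Without CD48dim replicate 1, the median log2 fold change ran from -0.98 in the shortest bin to 0.34 in the longest. Without replicate 2 it was 0.13 in the shortest and within 0.05 of 0 in the 3 longer bins. Of the genes called higher, 71.1% had their higher value in CD48dim replicate 2, against 45.5% of all tested genes. The part of length in single calls was not tested. With an offset for each library's effective lengths 511 genes were called higher and 253 lower, 502 and 248 of them genes also called without it. That offset corrects only differences between libraries in the effective length of the same gene. It cannot show whether long and short genes moved apart in a CD48dim library.

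**Figure D1:**
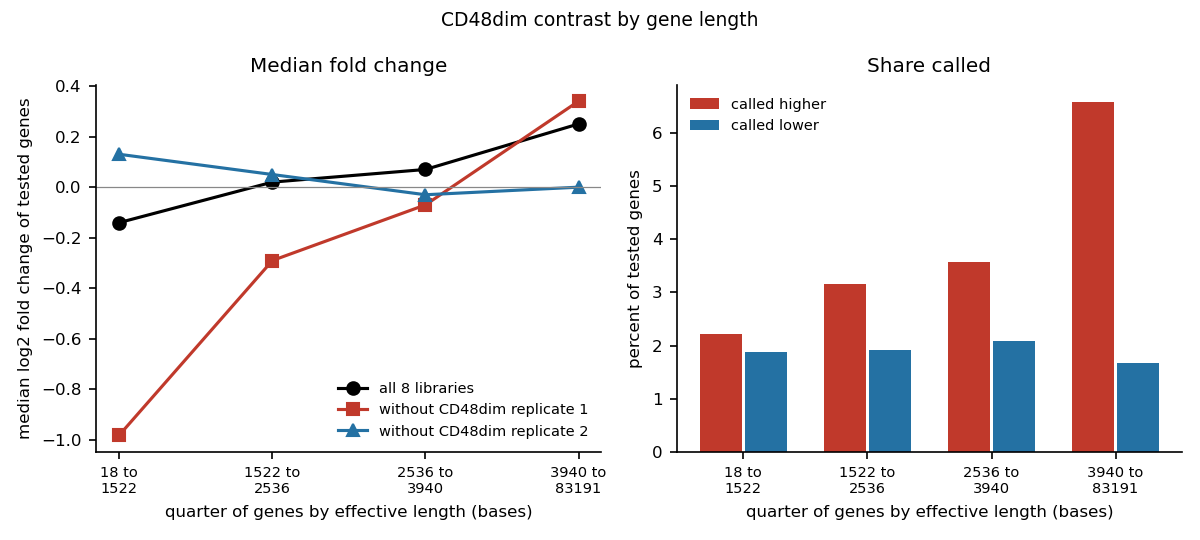
Left: median log2 fold change of tested genes (y) in 4 bins by effective length in bases (x), with all 8 libraries and without each CD48dim library; right: percent of each bin called higher or lower. Without CD48dim replicate 1 the median rises from -0.98 to 0.34 with length, and the share called higher rises from 2.21% to 6.59%.

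Each count above rests on few libraries. Without CD48dim replicate 1 the test called 2115 genes higher and 2427 lower, and without CD48dim replicate 2 it called 832 and 640. Leaving out any 1 of the 6 other libraries left fewer calls, 140 to 209 higher and 74 to 113 lower. Of the 512 genes called higher, 299 (58.4%) were also called without either CD48dim library in turn, and of the 249 called lower 231 (92.8%) were. Those fits hold 1 CD48dim library, which is assumed to vary like the other populations. Of the 75 genes called among the 80 named by rule, 43 were called in each of the 8 fits that left out 1 library, and none of the 75 changed direction in any of them. For most of the others the number of those 8 fits that kept the call is given beside the value, and Ltf, Chil3 and Csf2rb2 kept it in 3, 4 and 2.

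**Figure D2:**
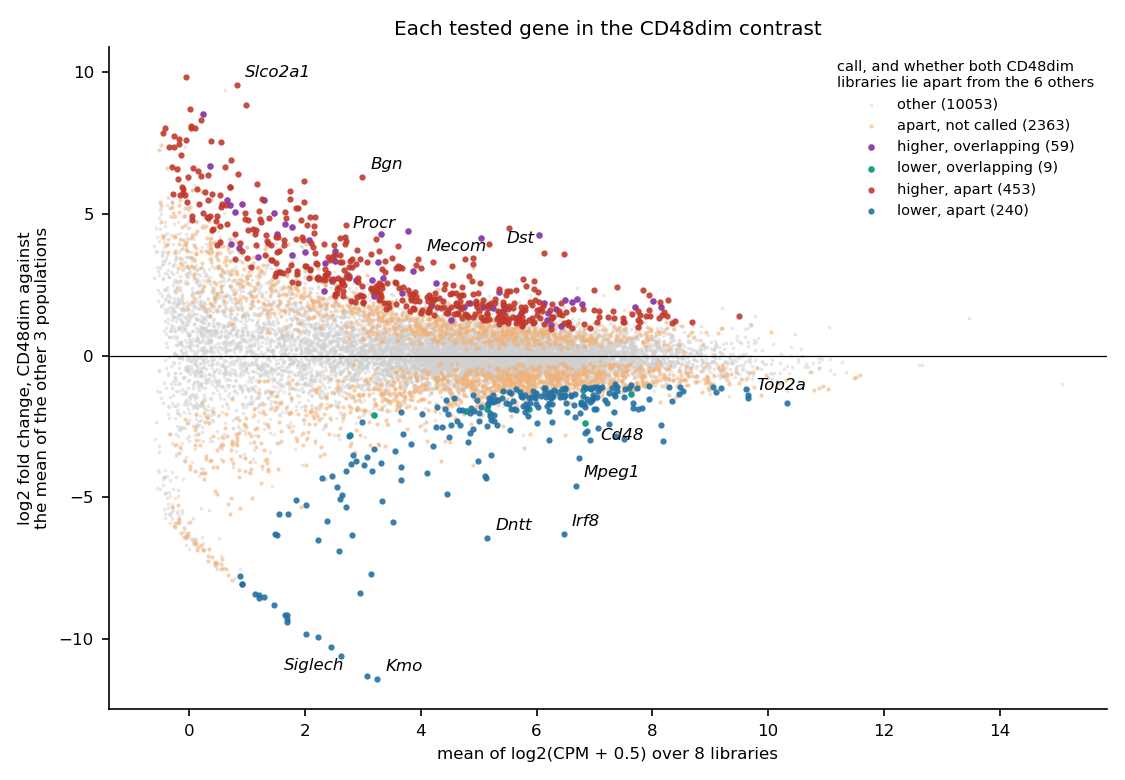
Log2 fold change of CD48dim against the mean of the 3 other populations (y) over the mean of log2(CPM + 0.5) in 8 libraries (x), 1 point per tested gene, coloured by call and by separation from the 6 other libraries. The 453 genes called higher and apart reach 9.84 on the log2 scale and the 240 called lower and apart reach -11.41, where fitted values of genes at 0 are no bound.

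Transcripts of the gated proteins matched the gates in part. Cd48 (chromosome 1, 171681245 to 171705258) lay at 35.8 and 16.9 CPM in CD48dim, 209.1 and 156.6 in CD34bright, 178.8 and 229 in CD48bright, and 221.1 and 245.9 in CD41- CD9-. Both CD48dim libraries lay far under the other 6, which overlapped one another, and the log2 fold change was -2.96 ± 0.39 (SE, edgeR adjusted p = 0.00557). Since CD48 set the gate, this is a check of the labels. Itga2b (chromosome 11, 102453297 to 102469883) lay at 155.2 and 112.1 CPM in CD48dim and 64.3 to 104.1 in the other CD41+ populations, but at 2.83 and 2.18 in CD41- CD9-. Its log2 fold change of 2.35 ± 0.27 (edgeR adjusted p = 0.00393) rested on 1 pair, with pairwise values of 0.57 against CD34bright (adjusted p = 0.419), 0.76 against CD48bright (0.369) and 5.73 against CD41- CD9- (0.000551). Cd9, at 26.6 and 53.6 CPM in CD48dim, was not called (0.70, adjusted p = 0.42). Cd34 lay at 196.8 and 165.9 CPM, under the 233 to 509.6 of the other 6, and was not called either (-1.01 ± 0.33, adjusted p = 0.101). Kit, the receptor of stem cell factor, lay at 771.2 and 1226 CPM in CD48dim and 240 to 743.4 elsewhere, and its log2 fold change of 1.00 had an adjusted p of 0.0701, or 0.0204 with the replicate block. The CD16/32 genes were not absent: Fcgr3 lay at 39.5 and 3.02 CPM and Fcgr2b at 13.5 and 21.2 CPM in CD48dim, near-identical genes that can share reads.

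The markers Procr and Mecom, both known from haematopoietic stem cells, were called higher in CD48dim. Procr (chromosome 2, 155751125 to 155755478) lay at 47.7 and 54.4 CPM in CD48dim, 5.41 and 4.76 in CD34bright, 3.54 and 2.19 in CD48bright, and 0.708 and 2.18 in CD41- CD9-. The lower CD48dim library was 8.81 times the highest other one, and the log2 fold change was 4.20 ± 0.45 (edgeR adjusted p = 0.00306), although the pair with CD34bright alone was not called (adjusted p = 0.0575). Mecom (chromosome 3, 29951296 to 30509759), which encodes the stem cell transcription factor EVI1, lay at 63.8 and 116.1 CPM against 8.82 and 13.2, 11 and 6.95, and 7.08 and 4.84 in the same order. Its 6 lower values overlapped one another across populations, and the log2 fold change was 3.42 ± 0.36 (adjusted p = 0.00285). These 2 genes were proposed as markers of the population with earlier results of these data known.

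Of 30 stem cell genes tested, 18 were called, each of them higher, and 22 lay above all 6 other libraries. The median log2 fold change was 1.83, against 0.06 over all tested genes, where 3.89% were called higher and 11.6% lay above all 6. The pairwise medians were 1.66 against CD34bright, 1.73 against CD48bright and 2.27 against CD41- CD9-, which share the CD48dim libraries. Leaving out 1 library gave medians of 1.58 to 2.01, and fewer members were called without CD34bright replicate 1. Esam, an adhesion molecule of stem cells, platelets and endothelium, lay at 53.7 and 38.1 CPM and at 0.0787 to 3.7 in the others (log2 fold change 4.91 ± 0.57, edgeR adjusted p = 0.00393). Pdzk1ip1, a small membrane protein gene active in stem cells, lay at 98.6 and 47.3 CPM and at 0.323 to 13.6 (4.14 ± 0.47, adjusted p = 0.00393).

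Transcription factors of the stem cell list were among those called. Hlf lay at 602 and 1032 CPM in CD48dim and 68.8 to 232.1 in the others (log2 fold change 2.34), and Prdm16 at 52.2 and 57.4 against 1.29 to 10.2 (3.6). Erg, Meis1 and Mycn had log2 fold changes of 1.59, 1.58 and 1.72, and Mllt3, a cofactor of transcription elongation, 1.75. The receptor genes Robo4, Tek and Slamf1 had 3.3, 2.57 and 2.75. Genes of the list that did not pass the test included Ly6a, which encodes SCA-1, at 66.6 and 10 CPM in CD48dim against 2.56 to 48.6 (adjusted p = 0.257), Hoxb5 at 7.71 and 0.55 CPM (0.0792), and Ifitm1 and Ifitm3 (0.438 and 0.37). Ly6a shares reads with close family members, and its 2 CD48dim libraries spanned most of the range of the others.

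**Figure D3:**
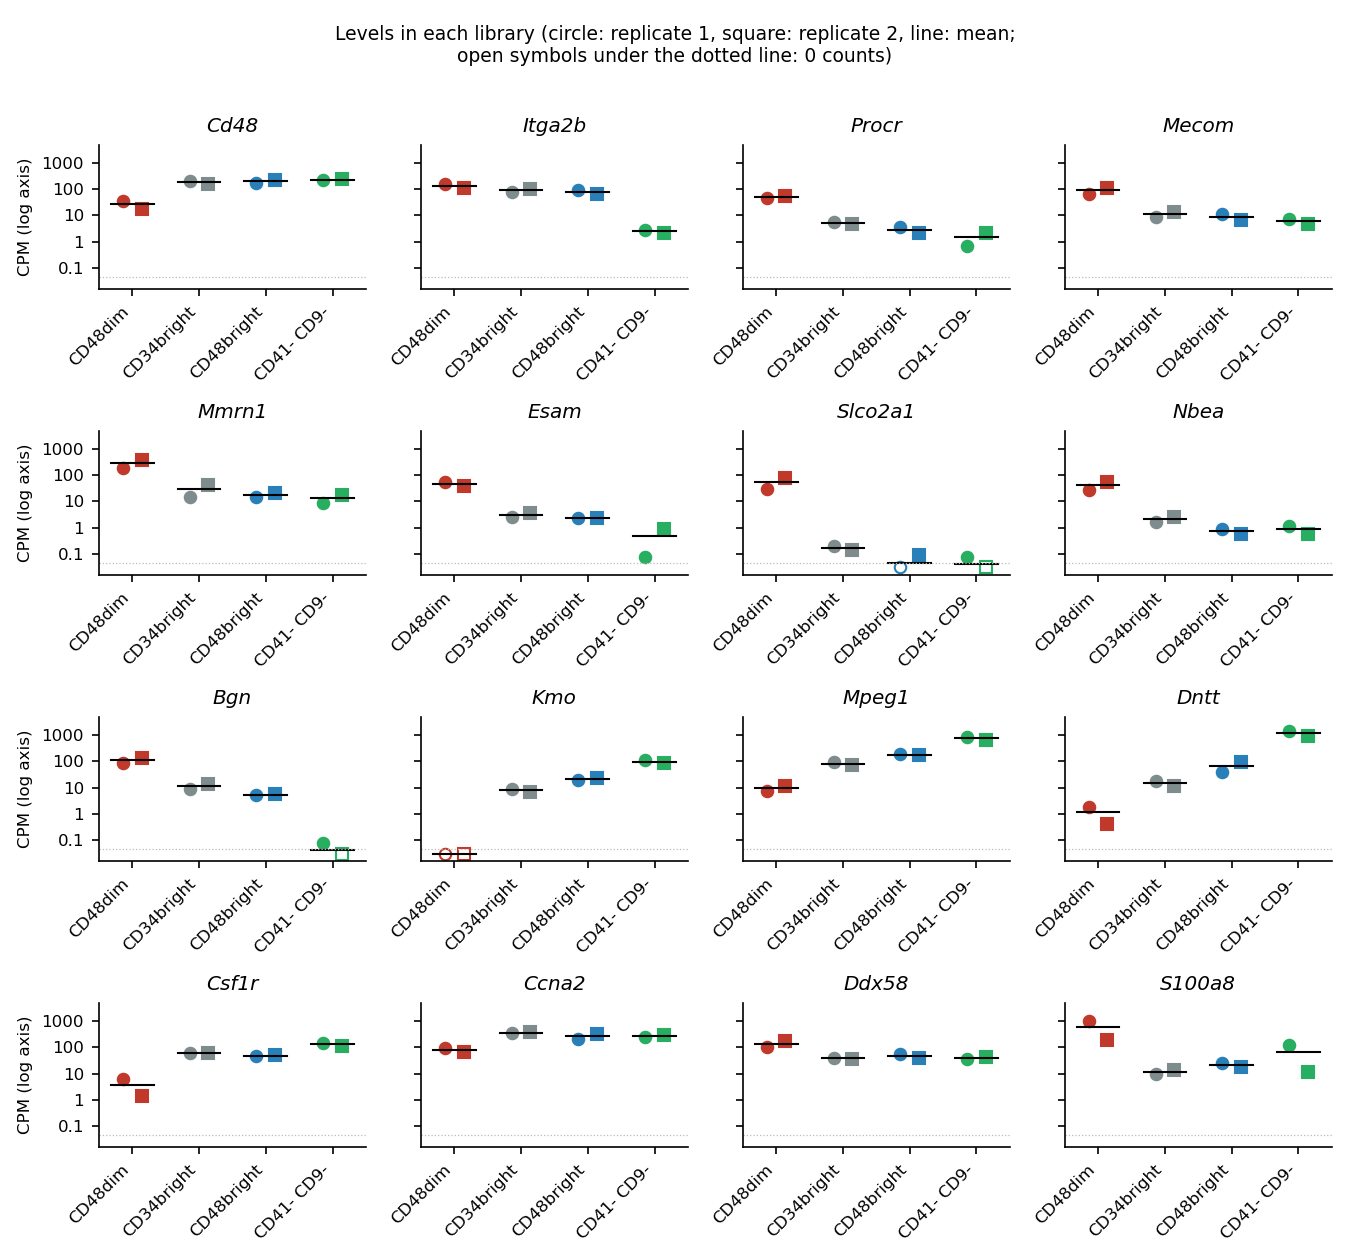
CPM on a log axis (y) of 16 genes in each library by population (x); circles are replicate 1, squares replicate 2, lines the mean of 2, and open symbols under the dotted line stand for 0 counts. Procr lies at 47.7 and 54.4 CPM in CD48dim against at most 5.41 elsewhere, Kmo at 0 in both CD48dim libraries, and the 2 CD48dim values of S100a8 are 989.6 and 190.5.

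Megakaryocyte and platelet genes leaned the same way, where 3.89% of all tested genes were called higher. Of 25 tested, 10 were called, each higher in CD48dim, and all 25 had a positive log2 fold change, with a median of 2.22 (1.98 with genes at 0 in a population set at a floor of 3 counts over it). The list holds the sort markers Itga2b, which was called, and Cd9, which was not. Their difference from CD41- CD9- is a check of the labels. Leaving out 1 library gave between 6 higher calls (without CD41- CD9- replicate 1) and 12 (without CD48dim replicate 1). Mmrn1, the platelet protein multimerin (chromosome 6, 60944317 to 60989378), lay at 190.4 and 401.1 CPM in CD48dim, 15.2 and 42.7 in CD34bright, 14.6 and 21.3 in CD48bright, and 8.81 and 17.5 in CD41- CD9- (log2 fold change 3.96 ± 0.42, edgeR adjusted p = 0.00302). Nbea, which encodes the vesicle protein neurobeachin (chromosome 3, 55625195 to 56183748), lay at 26.6 and 56.5 CPM and at 0.549 to 2.49 in the other 6 libraries (5.23 ± 0.50, adjusted p = 0.00222). In both genes the lower CD48dim library exceeded the highest of the others, by 4.46 and 10.7 times.

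The pairwise medians of that list were 1.43 against CD34bright, 1.05 against CD48bright and 3.21 against CD41- CD9-. Receptor and regulator genes called higher included Gp9 and Gp1ba of the platelet von Willebrand factor receptor (2.94 and 2.22), the thrombin receptor F2r (1.98), Rab27b of granule release (3.13) and the transcription factor Gfi1b (1.65). Gp1ba and F2r, like Pf4 below, did not lie above all the other libraries. Late platelet genes were low throughout. Pf4, a platelet chemokine, was called at only 19.5 and 7.15 CPM, a log2 difference of 3.29 with CD41- CD9-, which had no count, set to the floor of 3 counts, Ppbp reached at most 2.06 CPM, Tubb1 at most 0.808, and Gp6 had no count in any library. Vwf lay at 10.7 and 18.3 CPM in CD48dim and 2.17 to 12.2 elsewhere and was not called (1.86, adjusted p = 0.101).

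The 12 genes with the largest increase were taken among called protein-coding genes apart from the others with at least 8 CPM in CD48dim. Slco2a1, the prostaglandin transporter (chromosome 9, 103007061 to 103096002), lay at 28.8 and 82.3 CPM in CD48dim, 0.206 and 0.142 in CD34bright, 0 and 0.0914 in CD48bright, and 0.0787 and 0 in CD41- CD9-. Its lower CD48dim value was 139.9 times the highest of the others, the widest such gap among the genes called higher that had a count elsewhere, and the log2 fold change was 9.56 ± 0.71 (edgeR adjusted p = 0.000934). Bgn, the matrix proteoglycan biglycan (chromosome X, 73483601 to 73495936), lay at 89.9 and 135.6 CPM, against 8.66 and 13.4 in CD34bright, 5.1 and 5.58 in CD48bright, and 0.0787 and 0 in CD41- CD9- (6.31 ± 0.40, adjusted p = 0.000567). Pclo, a presynaptic scaffold protein in neurons, lay at 9.91 and 11.8 CPM and at most 0.183 elsewhere (a log2 difference of 7.31 with CD34bright, which had no count, set to the floor of 3 counts, edgeR adjusted p = 0.00897).

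Others of the 12, apart from Kcnj5, differed between the 2 CD48dim libraries. Clip3, a microtubule linker, lay at 7.05 and 34.8 CPM, and the potassium channel Kcnj5 at 35 and 37.4, and both were called in all 8 fits that left out a library. Scn2a1, a sodium channel, lay at 2.57 and 14.2 CPM with no count in any of the 6 other libraries, and 6 of the 8 fits kept its call. P2rx6, an ATP-gated channel, lay at 8.15 and 17.2 CPM (5 of 8 fits), and the transporter Slco4c1 at 9.69 and 19 (5 of 8). Without CD48dim replicate 2 the calls of Ttc39a (2.42 and 76.5 CPM), Porcn (1.47 and 21.8), Kcnd3 (1.76 and 25.4) and Pbld2 (1.17 and 21.7) were lost. Ttc39a, Porcn, Kcnd3 and Pbld2 kept it in 5, 3, 4 and 1 of the 8 fits. Slco4c1 and Ttc39a overlap other genes with 30.1% and 27% as many counts, and the libraries carry no strand, so those reads cannot be told apart.

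**Figure D4:**
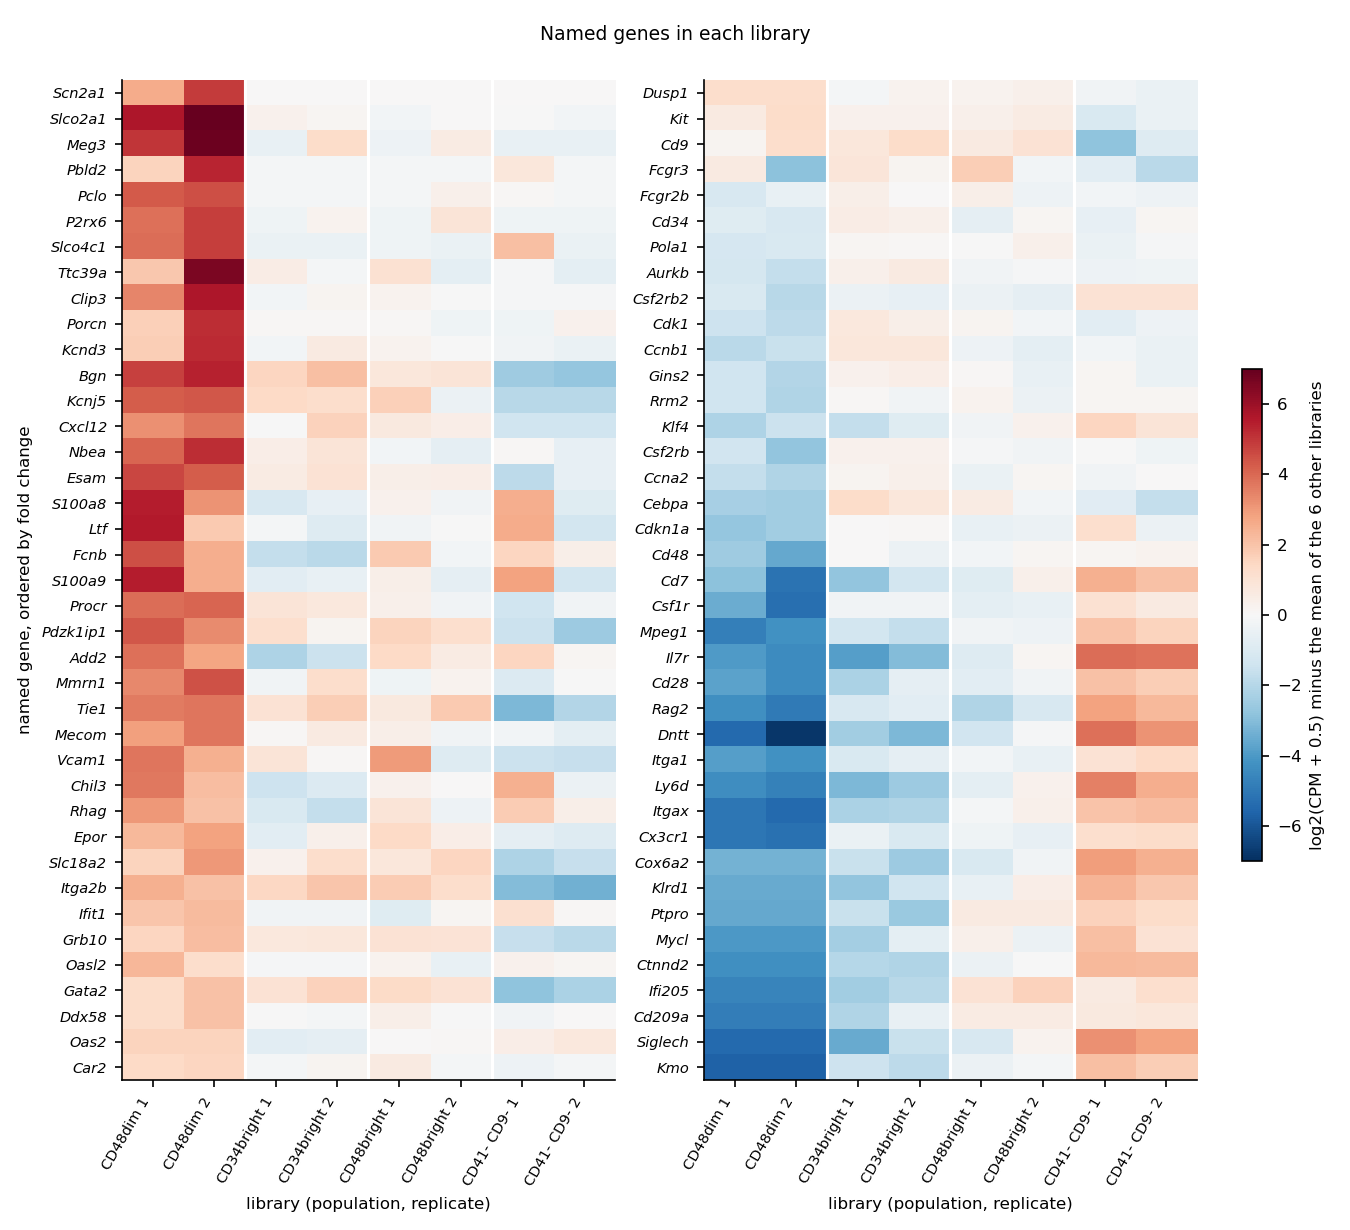
Log2(CPM + 0.5) minus the mean of the 6 other libraries (colour) for 78 named genes (rows, in the order of their log2 fold change) in 8 libraries (columns). Ttc39a, Porcn and Kcnd3 are darker in CD48dim replicate 2, and S100a8, S100a9 and Ltf in replicate 1.

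Genes named for vessels and stroma gave a mixed picture. Tie1, an angiopoietin co-receptor also present in stem cells, lay at 78.7 and 85.5 CPM in CD48dim, 12.4 and 20.4 in CD34bright, 9.67 and 22.3 in CD48bright, and 0.236 and 1.05 in CD41- CD9- (log2 fold change 3.89 ± 0.46, edgeR adjusted p = 0.00396). Of its pairs only that with CD41- CD9- was called. In the main contrast Tie1 was the only one called of 11 endothelial genes tested, against 3.89% of all tested genes called higher. The median of the endothelial list was 0.49, or -2.12 without CD48dim replicate 1, -0.14 with limma-voom and -0.30 with the replicate block. The defining endothelial gene Cdh5 had no count in either CD48dim library, and neither did Stab1, Stab2, Plvap, Fabp4 or Ptprb. Emcn and Eng lay above all 6 other libraries, at 9.76 and 9.89 CPM against 0.731 to 6.47 and at 149.2 and 105.7 against 42.1 to 75.8, and were not called (edgeR adjusted p = 0.205 and 0.0511). Pecam1 lay below all 6, at 77.1 and 59.2 CPM against 88.8 to 222.4 (0.0663), and Kdr lay at 2.35 and 0.275 CPM against 0 to 4.9 (0.473). The summed level of the 20 genes was 361.5 and 282.4 CPM in CD48dim and 191.9 to 305.2 in the others.

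Of 9 stromal genes tested, Bgn, Cxcl12 and Vcam1 were called higher, against 3.89% of all tested genes. The median was 3.47, or 3.27 with the floor, and 4.31 without CD48dim replicate 1. Cxcl12, the chemokine that holds stem cells in the marrow, lay at 11.6 and 16.9 CPM in CD48dim, at 0.774 to 3.55 in CD34bright and CD48bright and at 0 in CD41- CD9- (a log2 difference of 4.31 with that population set to the floor, edgeR adjusted p = 0.0131). Of its pairs only that with CD41- CD9- was called. Vcam1, an adhesion molecule, lay at 39.9 and 16.1 CPM with 23.2 in CD48bright replicate 1, so the groups overlapped, and its call (3.27, adjusted p = 0.0474) was kept in 4 of 8 fits. Uncalled members with higher values in CD48dim were Lepr at 0.367 and 3.02 CPM against 0 to 1.25, Ebf3 at 0.881 and 2.61 against 0 to 0.416, and Col1a2 at 1.1 and 8.38 against 0 to 3.8 (edgeR adjusted p = 0.221, 0.0737 and 0.147). Other stromal genes were at or near 0: Dcn and Lum reached 0.0734 CPM and Col3a1 was at 0 in both CD48dim libraries, and Col1a1 reached 1.39. The summed level of the 16 genes was 481.7 and 626.7 CPM in CD48dim, 348.6 to 416.5 in CD34bright and CD48bright, and 1591 and 1573 in CD41- CD9-, where Runx2 made up most of it.

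Erythroid genes were higher in part, and more so in CD48dim replicate 1, where 3.89% of all tested genes were called higher and 1.89% lower in the main fit. Of 21 tested, 6 were called higher and 1 lower, with a median of 1.86, and leaving out 1 library gave 2 (without CD34bright replicate 2) to 11 (without CD48dim replicate 2) higher calls. The erythropoietin receptor Epor lay at 35.6 and 52.9 CPM in CD48dim, 4.07 and 9.31 in CD34bright, 19.7 and 9.87 in CD48bright, and 4.33 and 3.55 in CD41- CD9- (log2 fold change 2.60 ± 0.44, edgeR adjusted p = 0.0142). The spectrin-binding Add2 lay at 34.6 and 15.8 CPM against 0.0516 to 6.53 (3.99 ± 0.66, adjusted p = 0.0137). Carbonic anhydrase Car2, at 587.7 and 625.4 CPM against 173.2 to 345.3 (1.43, adjusted p = 0.0187), and the ammonium channel Rhag, at 30.9 and 15.3 against 0.711 to 12.6 (2.74, 0.0303), kept their calls in 3 of 8 fits each.

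Markers of red cell maturation parted the 2 CD48dim libraries. Haemoglobin Hba-a2 was called (5.41) at 143.7 and 8.24 CPM, and Slc4a1, the band 3 protein, lay at 45.7 and 1.65 CPM and was not called (adjusted p = 0.0649). Haemoglobin genes are near-identical and share reads. The regulators Klf1 (28.9 and 2.06 CPM, adjusted p = 0.955) and Gata1 (35.7 and 29.4 CPM, 0.258) were not called. Transferrin receptor Tfrc was the member called lower, at 76.7 and 124.5 CPM against 609.8 and 797.4 in CD41- CD9- (-1.33), but its CD48dim values overlapped the 112.3 and 109.8 of CD34bright.

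Cytokine and growth factor receptor genes moved in both directions, with 6 of 29 tested called higher and 8 lower, against 3.89% and 1.89% of all tested genes. The median of the list was 0.05 (-0.02 to 0.65 when 1 library was left out). The number called higher was 4 without CD34bright replicate 1 and 10 without CD48dim replicate 1, and without CD34bright replicate 1 the number called lower was 3. Besides Epor, Tek and Tie1, the higher ones included Tgfbr3, the betaglycan co-receptor, at 110 and 186.3 CPM against 7.48 to 75.2 (2.28), and Fgfr1 at 12.8 and 16.4 against 0.823 to 3.31 (2.99). The lower ones included Csf1r, the receptor of macrophage colony stimulating factor, at 6.09 and 1.37 CPM against 60.4 and 62.4, 45.7 and 50.8, and 153.3 and 112.8. All 6 other libraries lay at least 7.5 times above it (-4.24 ± 0.57, edgeR adjusted p = 0.00616). Il6st, the shared receptor chain gp130, lay at 47 and 28.7 CPM against 89 to 443.3 (-2.02), and Il6ra, Il1r1, Lifr and Flt3 were called lower too (-1.61, -1.66, -2.81 and -1.21). Lifr and Flt3 did not lie below all the other libraries. Csf2rb and its near-identical neighbour Csf2rb2, chains of the interleukin 3 receptor, share reads. Csf2rb lay at 73.6 and 26.8 CPM against 152.8 to 228 (-1.88, adjusted p = 0.0299), a call kept in 2 of 8 fits.

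Adhesion and matrix genes were split as well, with 5 of 25 called higher and 4 lower, against 3.89% and 1.89% of all tested genes. Their median was 0.79, or 1.04 without CD48dim replicate 2. The synaptic adhesion gene Clstn3 lay at 23.1 and 21.7 CPM in CD48dim against 0.0787 to 8.87 (log2 fold change 3.48) and the fibronectin receptor subunit Itga5 at 177.4 and 186.1 against 39.2 to 102.8 (1.48). Lower was Itgb7, an integrin of gut homing, at 14.7 and 7.42 against 22.3 to 146.8 (-2.46). Itga1, a collagen receptor subunit, lay at 0.147 and 0 CPM against 4.02 to 24.1 (-6.49 ± 0.96, edgeR adjusted p = 0.00869). It overlaps Pelo, which had 1528 counts against 906, so its level is uncertain.

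Of 27 genes of monocytes and dendritic cells tested, 13 were called, each lower in CD48dim. Below all 6 other libraries lay 13, against 11.6% of all tested genes. The median log2 fold change was -2.65 (-2.55 with the floor), where 1.89% of all tested genes were called lower, and leaving out 1 library gave 12 to 19 lower calls. Kmo, an enzyme of tryptophan breakdown (chromosome 1, 175632193 to 175660853), had no count in either CD48dim library and lay at 8.82 and 6.61 CPM in CD34bright, 18.6 and 22.2 in CD48bright, and 109.6 and 84.6 in CD41- CD9-. Against a floor of 3 counts over the 2 CD48dim libraries it was at least 290-fold lower than the arithmetic mean CPM of the 3 populations (edgeR adjusted p = 0.00141). That mean, unlike the mean of log2 values in the test, is set mostly by the highest population. It also serves for the folds of the other genes at 0 in CD48dim below. Siglech, a receptor of plasmacytoid dendritic cells (chromosome 7, 55768154 to 55779448), was at 0 in CD48dim and at 1.34 and 6.82, 9.31 and 25, and 199.3 and 151.1 CPM in the same order, at least 456-fold lower (adjusted p = 0.00813). Cd209a, a lectin of dendritic cells, and Ifi205, a member of a gene family that shares reads, were also at 0 and at least 115-fold and 126-fold lower. With the mean of log2 values, the log2 differences at the floor were -7.43 for Kmo, -7.33 for Siglech, -6.63 for Cd209a and -6.31 for Ifi205.

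Levels in the 3 other populations of this group were lowest in CD34bright and highest in CD41- CD9- for several genes. Mpeg1, the pore-forming perforin 2 of phagocytes (chromosome 19, 12460770 to 12465285), lay at 7.56 and 11.3 CPM in CD48dim, 91.3 and 70 in CD34bright, 188.5 and 172.7 in CD48bright, and 879.9 and 663.5 in CD41- CD9-. The 4 populations did not overlap, and each pairwise contrast was called (-3.11, -4.27 and -6.36, edgeR adjusted p = 0.0269, 0.00553 and 0.000551). Irf8, the transcription factor of monocyte and dendritic fate, lay at 6.83 and 0.275 CPM against 143.2 and 141.4, 169.8 and 207.2, and 1104 and 820.4 (-6.29, adjusted p = 0.00813). Cx3cr1, the fractalkine receptor, lay at 0.0734 and 0 CPM against 8.39 to 45.4, and the integrin Itgax at 0.147 and 0 against 4.13 to 98.5. Not every member was low: Lyz2 lay at 564.9 and 275.9 CPM against 124.5 to 491.3 and Clec12a at 179.9 and 88.9 against 91.3 to 189.3, both uncalled (adjusted p = 0.556 and 0.926). The zinc finger gene Klf4 was called lower (-1.87) with its CD48dim values of 10.4 and 16.5 CPM overlapping CD34bright, and 2 of 8 fits kept the call.

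The rest of the 12 lowest genes were likewise at or near 0 in both CD48dim libraries. Ctnnd2, a catenin, was at 0 CPM against 1.96 and 1.78 in CD34bright, 6.87 and 9.32 in CD48bright, and 47.6 and 46 in CD41- CD9-, at least 131-fold lower (edgeR adjusted p = 0.00393). Mycl, a MYC family member active in dendritic cells, the phosphatase Ptpro, the natural killer receptor Klrd1 and the cytochrome oxidase subunit Cox6a2 were at 0 as well, at least 83-fold, 59-fold, 73-fold and 81-fold lower. Klrd1 and Cox6a2 kept their calls in 7 of 8 fits, and Cox6a2 overlaps Itgad with 23.6% as many counts. In all, 18 of the 240 genes called lower and apart had no count in either CD48dim library. In bulk samples fewer cells of a type and less RNA per cell cannot be told apart.

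Of 18 early lymphoid genes tested, 8 were called, each lower in CD48dim, against 1.89% of all tested genes. In this list 14 had a negative and 4 a positive log2 fold change. The median over the 18 was -1.65, with pairwise medians of -0.16 against CD34bright, -0.48 against CD48bright and -3.56 against CD41- CD9-. Leaving out 1 library gave 6 to 10 lower calls. Dntt, the polymerase that adds bases at antigen receptor joints (chromosome 19, 41029275 to 41059525), lay at 1.84 and 0.412 CPM in CD48dim, 18.5 and 11 in CD34bright, 39.9 and 98.3 in CD48bright, and 1503 and 907.1 in CD41- CD9-. Its lowest other library was 6.0 times above the higher CD48dim one, and the log2 fold change was -6.44 ± 0.72 (edgeR adjusted p = 0.00393). The interleukin 7 receptor Il7r lay at 0.367 and 0.137 CPM, just under the 0.413 and 1.14 of CD34bright and far under the 199.6 and 187 of CD41- CD9- (-5.32 ± 0.67, adjusted p = 0.00518). Ly6d, a surface marker of lymphoid progenitors, lay at 0.147 and 0 CPM against 0.98 to 151.6. Satb1, a chromatin organiser, lay at 38.1 and 32.8 against 88.6 to 599.5 (-2.56). Rag2, at 0.294 and 0 CPM against 3.12 to 109.6, overlaps B230118H07Rik, which had 2716 counts against 2723, so its level is uncertain.

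T and natural killer cell genes included 3 called lower of 17 tested (Klrd1, Cd28 and Cd7), against 1.89% of all tested genes. The median of the 17 was -2.14 (-1.79 with the floor), or, over 18 tested, -5.65 without CD48dim replicate 1 and -1.44 without CD48dim replicate 2. None of the 3 calls held when CD41- CD9- replicate 1 was left out. Cd28, a T cell co-stimulator, lay at 0.294 and 0 CPM against 1.75 to 44.1 and kept its call in 7 of 8 fits, and Cd7 lay at 1.98 and 0 against 2.11 to 98.8 and kept it in 2. Cd3d, Cd3e and Cd3g reached at most 0.587 CPM in CD48dim. None of 13 B cell genes was called by edgeR, with 3 at an unadjusted p below 0.05, while DESeq2 called 1 higher and 2 lower. Their median was -0.22 and turned to 0.29 without CD48dim replicate 2. Without CD48dim replicate 1 it was -3.16. The summed level of the 13 genes was 74.9 and 34.5 CPM in CD48dim, and their part in other results was not tested.

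Of 24 genes of mitosis tested, 11 were called, each lower in CD48dim, against 1.89% of all tested genes. All 24 had a negative log2 fold change and 17 lay below all 6 other libraries, against 11.6% of all tested genes. The median was -1.23, but the number of calls fell to 2 without CD34bright replicate 1 and reached 16 without either CD48dim library. Ccna2, cyclin A2 (chromosome 3, 36564865 to 36573038), lay at 95.4 and 69 CPM in CD48dim, 345.2 and 389.1 in CD34bright, 218.7 and 323.2 in CD48bright, and 250.2 and 303 in CD41- CD9-. The lowest other library was 2.29 times the higher CD48dim one, and the log2 fold change was -1.88 ± 0.31 (edgeR adjusted p = 0.0134). Ccnb1, cyclin B1, lay at 27.9 and 35 CPM against 64.8 to 181.2 (-1.72 ± 0.29, adjusted p = 0.0139). The kinases Cdk1 and Aurkb were called at -1.67 and -1.43, and kept the call in 4 and 2 of 8 fits. Top2a, the topoisomerase that untangles chromosomes, lay at 375 and 365.4 CPM against 872.1 to 1368 (-1.5). Mki67, the gene of the Ki-67 antigen, had a log2 fold change near 0 (-0.11, adjusted p = 0.915). It lay at 958.9 and 2916 CPM against 1450.3 to 2560, its 2 CD48dim libraries lying below and above that range. Cenpe, Aurka and Cenpf were not called either (-0.04, -0.36 and -0.54). The summed level of the 24 genes was 2524 and 4862 CPM in CD48dim, against 4799.8 to 8042 in the others.

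**Figure D5:**
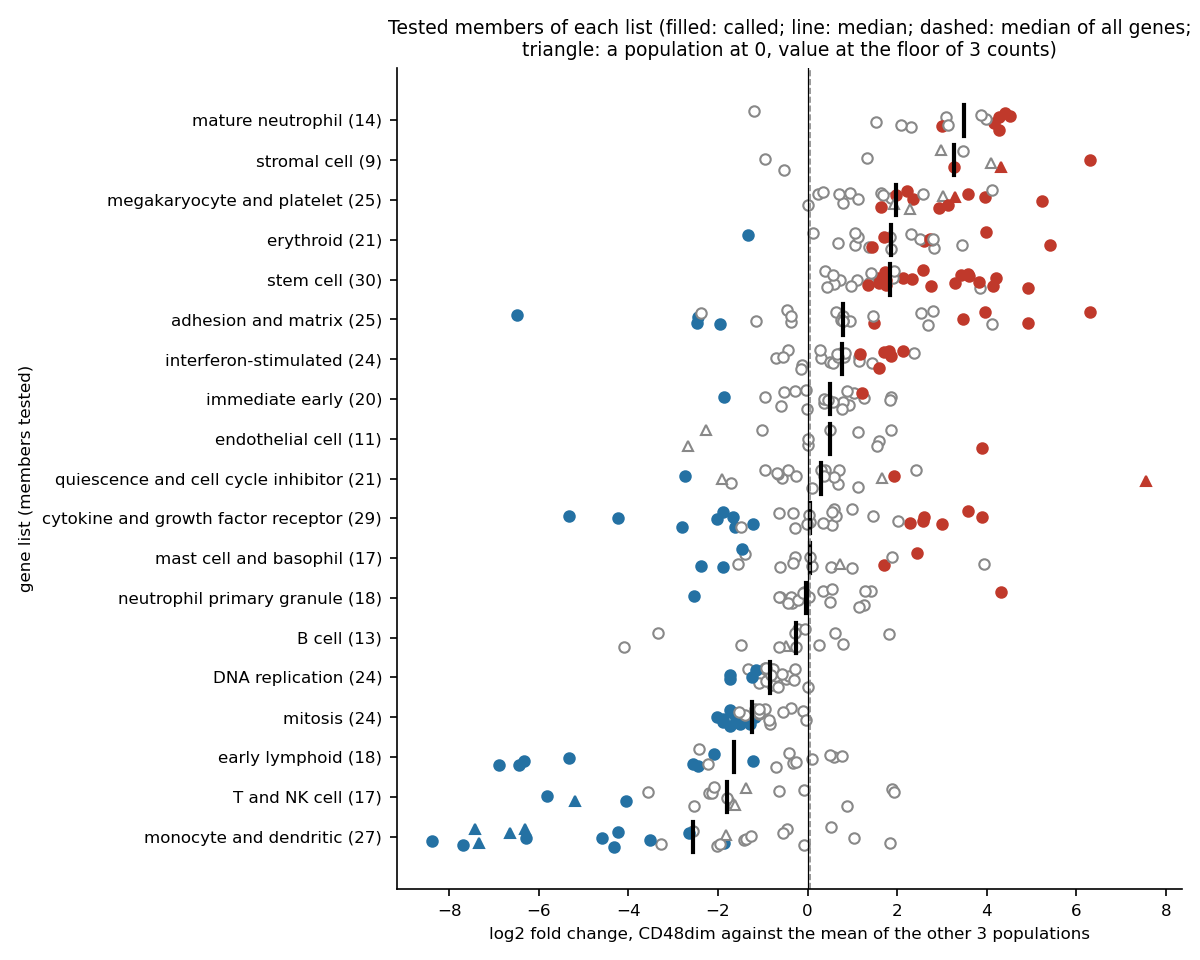
Log2 fold change of CD48dim against the mean of the 3 other populations (x) for the tested members of 19 gene lists (y, number tested in brackets); filled symbols were called, black lines are medians, the dashed line is the median of all genes, 0.06, and triangles are genes at 0 in a population, placed at the floor of 3 counts. All 30 stem cell genes lie right of 0 and all 24 mitosis genes left of it.

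Of 24 DNA replication genes, 4 were called lower (9 with the replicate block), with a median of -0.84, or -1.44 without CD48dim replicate 1 and -0.56 without CD48dim replicate 2, and 14 lay below all 6 other libraries. The shares over all tested genes were 1.89% called lower and 11.6% below all 6. Among the 4 calls were Rrm2, a ribonucleotide reductase subunit, at 58.5 and 35 CPM against 116.2 to 182.7 (-1.72), Gins2 of the replication helicase at 32.4 and 20.2 against 60.1 to 116.3 (-1.72), and the polymerase gene Pola1 at 84.8 and 89.6 against 140.7 to 241 (-1.14). These edgeR calls (adjusted p = 0.0226, 0.0264 and 0.0389) were kept in 4, 3 and 2 of 8 fits, and no call of the list held without CD34bright replicate 1. DESeq2 called 10 of the list lower. Gins2 overlaps Gse1, which had 34376 counts against 8605.

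Quiescence and imprinted growth genes included 2 called higher and 1 lower of 21 tested, with a median of 0.29, or 4 and 4 without CD48dim replicate 1. Meg3, a long non-coding RNA of an imprinted cluster active in stem cells (chromosome 12, 109540996 to 109571729), lay at 22.5 and 82.6 CPM in CD48dim, 0 and 1.21 in CD34bright, 0.052 and 0.549 in CD48bright, and 0 in both CD41- CD9- libraries. The lower CD48dim value was 18.6 times the highest of the others (a log2 difference of 7.56 with CD41- CD9- set to the floor of 3 counts, edgeR adjusted p = 0.0086). The imprinted adaptor Grb10 lay at 62.6 and 101.7 CPM against 5.57 to 45.3 (1.92 ± 0.28, adjusted p = 0.0086). Of its pairs only that with CD41- CD9- was called (3.73, against 1.12 for CD34bright and 0.9 for CD48bright). Cdkn1a, which encodes the cell cycle inhibitor p21, was lower, at 6.46 and 7.7 CPM against 31.2 to 101.4 (-2.73 ± 0.49, adjusted p = 0.0175). The inhibitor Cdkn1c lay at 4.04 and 5.5 CPM against 0.161 to 1.65 and was not called (adjusted p = 0.163). The shares over all tested genes were 3.89% called higher and 1.89% lower.

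Some interferon-stimulated genes were higher, 6 of 24 being called, each higher, against 3.89% of all tested genes. The median of the list was 0.77, with pairwise medians of 1.05, 1.00 and 0.27 against CD34bright, CD48bright and CD41- CD9-. Ddx58, the RNA sensor RIG-I, lay at 101.7 and 170.8 CPM in CD48dim and 34.9 to 55.3 in the others (log2 fold change 1.71 ± 0.28, edgeR adjusted p = 0.0131). Oasl2, Oas2 and Ifit1, which act against viral RNA, had 1.86, 1.60 and 2.12 and kept their calls in 4, 2 and 2 of 8 fits, and Rsad2 and Ifih1 had 1.81 and 1.17. Other members did not follow, with Mx1 at 6.09 and 13.9 against 2.37 to 36.1. Without CD34bright replicate 1 there was 1 higher call, and without CD48dim replicate 1 there were 9. Among 20 immediate early genes, 5 of which were called higher with the replicate block, the phosphatase Dusp1 was called higher, at 636.6 and 630.7 CPM against 192.9 to 345 (1.22, adjusted p = 0.021, kept in 2 of 8 fits), and Klf4 lower, while Fos lay at 749.7 and 735.7 against 487.1 to 1075.

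Neutrophil genes differed by stage, where 3.89% of all tested genes were called higher and 1.89% lower. Of 18 primary granule genes 1 was called in each direction. Their median of -0.03 ranged from -0.64 to 0.47 when 1 library was left out, and was -0.64 without CD48dim replicate 1. Fcnb, the lectin ficolin B, was higher, at 54 and 13.5 CPM in CD48dim and 0.142 to 8.11 in the others (log2 fold change 4.32 ± 0.70, edgeR adjusted p = 0.0131). Mpo, the myeloperoxidase gene, lay at 9789 and 2103 CPM in CD48dim against 2182 to 16433, and Elane, neutrophil elastase, at 2874 and 1011 against 273.2 to 1706, both uncalled. Cebpa, the transcription factor of granulocyte fate (chromosome 7, 35119293 to 35121928), was lower, at 5.36 and 4.81 CPM in CD48dim, 70.9 and 49.7 in CD34bright, 43.2 and 24.9 in CD48bright, and 16.3 and 8.48 in CD41- CD9- (log2 fold change -2.53 ± 0.47, edgeR adjusted p = 0.0193, kept in 7 of 8 fits). Of 14 mature neutrophil genes, 6 were called higher, with a median of 3.5. S100a8 lay at 989.6 and 190.5 CPM in CD48dim and at 9.44 to 124.6 in the others (4.51 ± 0.71, adjusted p = 0.0124), and S100a9 at 1471 and 193.3, overlapping the 229.1 of CD41- CD9- replicate 1, with a call kept in 6 of 8 fits. Without CD48dim replicate 1 the list held 3 calls and a median of 1.45, without replicate 2 it held 12 and 4.32, and without CD34bright replicate 1 it held 1 call. Whether these transcripts came from the sorted progenitors was not tested. Per length, S100a8 and S100a9 had the highest levels among genes called higher, at 6982 and 5309 TPM on average in CD48dim, followed by Car2 at 843.8 and Dusp1 at 797.2.

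Mast cell and basophil genes were split, where 3.89% of all tested genes were called higher and 1.89% lower. Of 17 tested, 2 were called higher and 3 lower, with a median of 0.05 that lay between -0.59 with limma-voom and 0.85 without CD48dim replicate 1, where 5 and 5 were called, and with the replicate block 4 were called higher. Slc18a2, a transporter that loads amines into granules, lay at 333.1 and 923.1 CPM in CD48dim, 136.1 and 259 in CD34bright, 192.2 and 323.1 in CD48bright, and 24.6 and 35.8 in CD41- CD9- (log2 fold change 2.44 ± 0.39, edgeR adjusted p = 0.0131). Of its pairs only that with CD41- CD9- was called. Gata2, which encodes a regulator of mast cells and early progenitors, lay at 384.6 and 645.7 CPM, overlapping the 311.8 to 482 of the CD34bright and CD48bright libraries and far above the 21.9 and 33.3 of CD41- CD9- (1.71 ± 0.30, adjusted p = 0.0156, kept in 7 of 8 fits). The protease gene Cpa3 was called lower (-2.38), at 12.9 and 58.3 CPM against 365 to 565.1 in CD34bright and CD48bright and 44.5 and 23.7 in CD41- CD9-. Cma1, Tpsb2 and Tpsab1, proteases of mature mast cells, were at 0 in both CD48dim libraries.

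Across the 453 genes called higher and apart, the nearest of the 3 populations by mean CPM was CD48bright for 201 (44.4%), CD34bright for 128 (28.3%) and CD41- CD9- for 124 (27.4%). The farthest was CD41- CD9- for 239 (52.8%), CD34bright for 145 and CD48bright for 69. Across the 240 called lower and apart, the nearest was CD34bright for 100 (41.7%), CD48bright for 85 and CD41- CD9- for 55, and the farthest CD41- CD9- for 145 (60.4%). Single pairs called fewer genes, 28 higher (0.212%) and 48 lower (0.364%) against CD34bright, 0.577% of tested genes in all, 15 (0.114%) and 36 (0.273%) against CD48bright, 0.387% in all, and 269 (2.04%) and 261 (1.98%) against CD41- CD9-, 4.02% in all, comparisons that share the CD48dim libraries. Leaving out 1 library gave 0 to 3911 calls against CD34bright, 4 to 3211 against CD48bright and 81 to 3295 against CD41- CD9-, each highest without CD48dim replicate 1. Each of the 3 pairwise contrasts was called for 10 of the 453 higher genes, among them Mecom, Slco2a1, Bgn and Nbea, and for 23 of the 240 lower ones, among them Kmo, Mpeg1, Itgax, Csf1r and Cd48. For 254 of the higher genes and 78 of the lower ones no single pair was called.

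The genes called and apart also differed in how firmly the libraries parted. The lower CD48dim library exceeded the highest other one by at least 4 times for 88 of the 453, and the lowest other library exceeded the higher CD48dim one by that much for 48 of the 240. The 2 CD48dim libraries lay within 2-fold of each other for 278 of the higher genes and 161 of the lower ones. Separation without a call was common, with 1070 genes above and 1293 below all 6 others that did not pass the test, 766 and 825 of them at an unadjusted p below 0.05. Conversely 59 genes were called higher and 9 lower without lying apart, Vcam1, Gata2 and S100a9 among the first. The median log2 fold change was 2.43 for genes called higher and -1.84 for those called lower, 484 and 246 of which were protein-coding.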

How the data were processed

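RNA of 8 libraries was measured by RNA-seq: 5 ng of total RNA was amplified to cDNA, and the libraries carry no strand, per the labels' protocols. The deposited tables give an expected count, a TPM value and an effective length in bases for each gene and library. Per the submitters' processing notes, the tools were STAR 2.7.2a, RSEM 1.3.2 and edgeR 3.30.3 (their roles are not given) and the build mm10. Libraries were grouped by their sort gates, since cluster numbers in other labels disagree.

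Expected counts were rounded (at most 2.2% of genes in a library were not whole). Genes were kept by edgeR's filterByExpr by population (13177 kept), scaled by TMM, and fitted over all 8 libraries in 1 quasi-likelihood model (edgeR 4.0.16, R 4.3.3) with 4 residual degrees of freedom and a biological coefficient of variation of 49.8%. The standard error is the log2 fold change divided by the square root of F. TPM served only to rank levels. limma 3.58.1 and DESeq2 1.42.0 were alternatives, beside other scaling, filters, offsets and libraries left out. Depth per library is given with the results.

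On simulated data of the main contrast, over 12938 genes, 76% of genes with a true log2 change of 3 and 55.1% at -3 were called, 24% at 1.5 and 12.2% at -1.5, and 0.0235% of unchanged genes. The simulation gave all populations the same mean per gene apart from the set changes. It held no trend with gene length and no CD48dim pair less alike than the others, so these shares need not hold for the real libraries. Deviations of same-numbered libraries from their population means correlated at 0.112 to 0.222 for the 6 pairs of populations. The labels do not say what the numbers mark, so whether they pair libraries was not settled. The main fit takes no account of them, and counts with them as a block are given as an alternative.

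The members and the 19 gene lists were chosen with earlier results of these data known. The genes named are the sort markers, Procr and Mecom, the 12 most changed called genes in each direction that lay apart with at least 8 CPM on the higher side, and up to 4 called members of each list by p. Further members of the lists were picked for naming after their values were seen. Some of these genes are not reported here.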

Additional observations from a re-analysis of the deposited data

How the results depend on the processing

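None of the 75 named calls changed direction under any setting run that tested it. Among the named genes not called, Fcgr3 had a log2 fold change of -0.41, which turned to 0.47 when CD48dim replicate 2 was left out and to 0.01 when CD48bright replicate 1 was. With the replicate block 849 genes were called higher and 615 lower, and the pairwise counts were 682 against CD34bright, 178 against CD48bright and 965 against CD41- CD9-. The block brought Kit past the threshold (edgeR adjusted p = 0.0204) and changed no other named call, but moved list counts. Lower calls were 9 of DNA replication and 16 of mitosis genes, instead of 4 and 11. Higher calls were 5 of immediate early, 4 of mast cell, 2 of endothelial, 2 of primary granule and 1 of B cell genes, instead of 1, 2, 1, 1 and 0. Lower calls of endothelial and of quiescence genes were 1 and 2 instead of 0 and 1. DESeq2 called 1133 genes higher and 843 lower, and 1260, 775 and 1536 in the 3 pairs. Without a filter on low counts 1220 and 658 were called, and 1018, 588 and 1191 in the pairs. Limma-voom gave 45 and 5 calls against CD34bright and CD48bright, and with quality weights 130 genes were called higher, 18 lower, 2 against CD48bright and 188 against CD41- CD9-. The stricter filter left 23 calls against CD48bright. The 6 other libraries as 1 group gave 314 higher calls. Fits of the 4 libraries of a pair alone gave 0, 0 and 129 edgeR calls, with 1572, 931 and 1558 genes at an unadjusted p below 0.05. Leaving out 1 library gave 140 to 2115 higher and 74 to 2427 lower calls, 0 to 3911 against CD34bright, 4 to 3211 against CD48bright and 81 to 3295 against CD41- CD9-. The genes apart from the others then numbered 1609 to 4038 above and 1655 to 4657 below, with 4038 and 4657 without CD48dim replicate 1 and 3999 and 3259 without replicate 2. The share of calls that were higher was 67.3%, but 57.3% with DESeq2, 58.0% with the block, 87.8% with quality weights, and 46.6% and 56.5% without CD48dim replicate 1 and 2. Without CD48dim replicate 1 the median of all genes was -0.19 instead of 0.06. Of the 75 named calls, DESeq2 kept 73, limma-voom 64, quality weights 25, the stricter filter 62 (11 were not tested there) and the single group 42. The cause of these shifts was not tested. The shallowest library held 7237587 counts, which limits the precision of genes with few counts.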

Other observations

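Outside the lists, the following genes were chosen after their values were seen. Ptgs1, the cyclooxygenase 1 gene, lay at 202.5 and 165.3 CPM against 4.12 to 47.7 in the 6 others (log2 fold change 3.44, edgeR adjusted p = 0.00393), and Tbxas1, thromboxane synthase, at 80.9 and 58.5 against 8.97 to 26.9 (2.20, 0.00752). Dst, the linker protein dystonin, lay at 381.5 and 541.1 CPM against 25.1 to 70.9 (3.62, 0.000934), the microtubule minus-end protein gene Camsap3 at 42.4 and 90.1 against 1.56 to 4.58 (4.62, 0.00229), and Syne1 of the nuclear envelope at 185.6 and 240.2 against 29.4 to 77.3 (2.25, 0.00518). These are long genes, and the part of length in their calls was not tested. The transcription factor genes Sox6 and Tal1 lay at 130.9 and 180.4 CPM against 1.57 to 54.8 and at 287.7 and 180.1 against 29.4 to 134.1 (3.23 and 1.64, edgeR adjusted p = 0.00229 and 0.013).

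Among genes lower in CD48dim outside the lists, the adhesion gene Emb lay at 53.4 and 69.3 CPM against 283.3 to 779.1 (-3.02, edgeR adjusted p = 0.00396) and the tetraspanin gene Cd53 at 53.5 and 26.2 against 193.3 to 447.9 (-2.95, 0.00557). Cnn3, an actin-binding calponin, lay at 0.367 and 0.55 CPM against 9.81 to 102.4 (-5.86, 0.00196). In all 3 genes both CD48dim libraries lay under every other library, by 4.09, 3.61 and 17.8 times at the nearest.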
